A study of Mus musculus with 12 samples.

Results

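Endothelins are short peptides that constrict blood vessels and act on heart muscle, fibroblasts and vessel walls. Each is cut from a larger precursor, first by furin-like proteases and then by an endothelin converting enzyme. The A receptor, encoded by Ednra, couples mainly to Gq proteins and phospholipase C in smooth muscle and cardiomyocytes and binds the peptide of Edn1 with much higher affinity than that of Edn3. The B receptor, encoded by Ednrb, binds both peptides about equally, triggers nitric oxide release from endothelium and removes endothelin from the circulation. The genes examined here were the ligand genes Edn1 and Edn3, the receptor genes Ednra and Ednrb, and Ece1, the gene of the main converting enzyme. They are 5 of the 29564 rows in the deposited tables and were chosen by name. All 5 were among the 14333 genes with enough reads to be tested. They were proposed with their levels in these groups already known, so their differences are given with errors as a description, and the fit across all genes supports nothing about them.

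Polyadenylated RNA of the left ventricle was sequenced for 12 wild-type C57BL6 mice in 3 groups of 4, each mouse giving 1 library. Control + Veh mice were non-failing and received vehicle. HFpEF + Veh mice modelled heart failure with preserved ejection fraction (HFpEF). They were fed a high-fat diet and given L-NAME, which blocks nitric oxide synthases, and they received vehicle. HFpEF + TYA-018 mice were made in this way too and received 15 mg/kg TYA-018, an oral inhibitor of the cytoplasmic deacetylase HDAC6. The series title gives a single dose, but the labels' protocol text describes dosing every day over weeks. The study describes hearts collected hours after one dose, and its methods name male mice. The labels give no age at collection and no batch. Animal numbers within each group lie together, so cage or processing date cannot be told apart from group. In the order of animal numbers, the libraries are called C1 to C4 for Control + Veh, V1 to V4 for HFpEF + Veh and T1 to T4 for HFpEF + TYA-018. These are also called controls, untreated HFpEF and treated HFpEF. Below, the model comparison sets HFpEF + Veh against Control + Veh, the treatment comparison sets HFpEF + TYA-018 against HFpEF + Veh, and the treated-to-control comparison sets HFpEF + TYA-018 mice against controls. A positive log2 fold change is higher in the group named first.

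The estimated counts summed to between 61.2 and 83.9 M (1e06) per library. Values are counts per 1e06 (CPM) after TMM scaling of library sizes, given as mean ± SD with n = 4, and log2 fold changes are edgeR estimates ± SE. The ventricular label was checked with marker genes, of which 8 cardiomyocyte genes summed to between 24743 and 35541 CPM in every library, and 4 atrial muscle genes to only 1.94 to 2.92 CPM. Mitochondrial transcripts took 37.0 to 40.6% of counts in controls, 43.1 to 47.7% in untreated HFpEF and 35.4 to 41.2% in treated HFpEF. In bulk tissue, fewer cells of a type and less RNA per cell cannot be told apart.

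Edn1 and Edn3 encode related peptides. The coding bases of the 2 mature peptides are shown because the ligand genes carry the largest differences below, and because they show how far apart reads from these genes are in sequence. Both lie in exon 2 on the plus strand of GRCm38 and were read from GENCODE M21 transcripts, 5′ to 3′, with the 4 cysteine codons in capitals.
Edn1, chr13:42303649-42303711: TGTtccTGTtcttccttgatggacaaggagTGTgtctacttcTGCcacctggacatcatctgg
Edn3, chr2:174761749-174761811: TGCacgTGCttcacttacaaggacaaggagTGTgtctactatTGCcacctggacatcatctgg
The cysteine codons stand at the same places in both. Of 21 codons, 8 differed between the genes, and 6 of these changed the residue. At the base level 13 of 63 positions differed. The Edn1 peptide spans residues 53 to 73 of a precursor of 202 residues, and the Edn3 peptide spans residues 97 to 117 of 214. No run of 50 bases in the transcripts of Edn1, Edn3 or Ednra was found in a transcript of another gene. Ednrb and Ece1 each shared 11 such runs with other genes, and the Ednrb counts were fractional in all 12 libraries, so a small part of their counts could be split with other genes. GENCODE M21 places non-coding genes on the opposite strand across parts of Edn1, Ednra and Ece1. Reads from such a pair cannot be told apart where strand is not used in counting. The study's methods name a stranded library kit, but the sources do not state whether strand was used in counting.

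Edn3 was the member that differed most from Control + Veh in both HFpEF groups. The gene (ENSMUSG00000027524.9, protein-coding) lies on chr2:174760619-174784042. Its estimated counts ranged from 126 to 1190 per library, so it was low but well covered. In Control + Veh its level was 2.31, 2.76, 2.49 and 1.84 CPM in C1 to C4. In HFpEF + Veh it was 11.5, 16.2, 18.1 and 17.7 CPM in V1 to V4. The lowest HFpEF + Veh library was therefore far above the highest Control + Veh library, and V1 stood below the other 3 of its group. In HFpEF + TYA-018 the level was 8.52, 9.84, 11.5 and 12.7 CPM in T1 to T4. These libraries also lay above all Control + Veh libraries, and the highest of them overlapped the lowest of HFpEF + Veh.

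The mean level of Edn3 was 2.35 ± 0.389 CPM in controls, 15.9 ± 3.02 CPM in untreated HFpEF and 10.6 ± 1.82 CPM in treated HFpEF. The log2 fold change of the model comparison was 2.76 ± 0.18, a 6.76-fold difference, and it ranked 51 from the highest of 14333 genes. The treatment comparison gave a log2 fold change of -0.58 ± 0.16. Against Control + Veh the treated mice stood at 2.18 ± 0.18, or 4.53-fold. Edn3 in treated hearts was thus lower on average than in untreated HFpEF hearts and remained several times the control level.

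**Figure D1:**
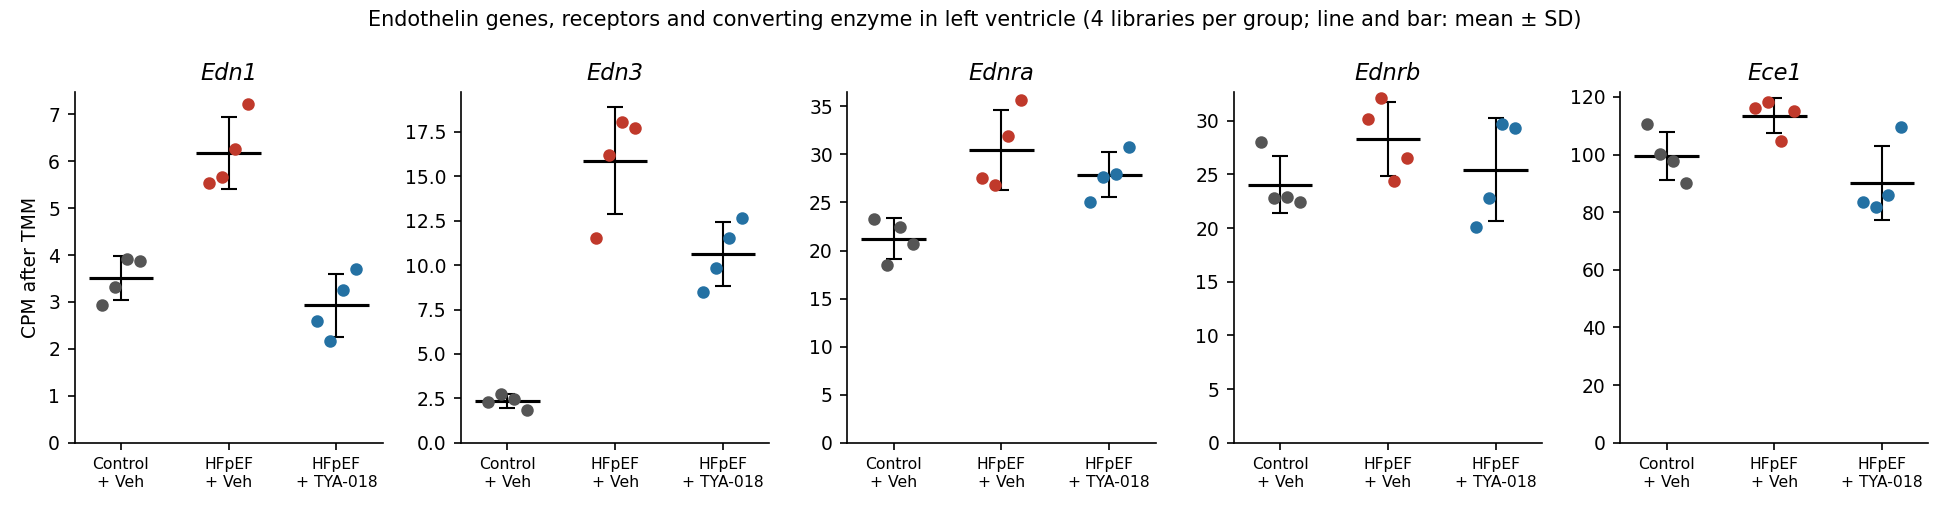
CPM after TMM of Edn1, Edn3, Ednra, Ednrb and Ece1 in left ventricle, with 1 point per library, 4 libraries per group, and the mean ± SD as line and bar (vertical axes start at 0 and differ between panels). Edn3 lies between 1.84 and 2.76 CPM in Control + Veh and above 8 CPM in the other 8 libraries, while Edn1 is highest in the 4 HFpEF + Veh libraries.

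Edn1 had another pattern. It is the endothelin gene best known from endothelium and from stressed heart muscle (ENSMUSG00000021367.8, protein-coding, chr13:42301476-42307990). Its level was 2.93, 3.33, 3.91 and 3.87 CPM in C1 to C4. In V1 to V4 it was 5.54, 5.66, 6.26 and 7.22 CPM, above every Control + Veh library. In T1 to T4 it was 2.59, 2.17, 3.24 and 3.69 CPM, below every HFpEF + Veh library and overlapping Control + Veh.

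Mean Edn1 levels were 3.51 ± 0.468 CPM in controls, 6.17 ± 0.768 CPM in untreated HFpEF and 2.92 ± 0.676 CPM in treated HFpEF. The log2 fold change was 0.81 ± 0.17 for the model comparison. It was -1.08 ± 0.17 for the treatment comparison, a 2.11-fold lower level with treatment. The treated-to-control comparison gave -0.26 ± 0.17. In treated hearts the Edn1 level thus lay within the range seen in control libraries or below it, whereas that of Edn3 did not.

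The receptor genes differed less than the ligand genes. Ednra (ENSMUSG00000031616.7, protein-coding, chr8:77663031-77724464, minus strand) was at 23.3, 18.5, 22.5 and 20.6 CPM in C1 to C4. It was at 27.5, 26.8, 31.9 and 35.6 CPM in V1 to V4. It was at 25.04, 27.7, 28.0 and 30.8 CPM in T1 to T4. Every library of both HFpEF groups lay above every Control + Veh library, and the HFpEF groups overlapped each other. The log2 fold change was 0.52 ± 0.10 for the model comparison and 0.39 ± 0.10 for the treated-to-control comparison. It was -0.13 ± 0.10 for the treatment comparison.

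Ednrb (ENSMUSG00000022122.15, protein-coding, chr14:103814625-103844402, minus strand) overlapped between all groups. It measured 28.0, 22.8, 22.9 and 22.4 CPM in Control + Veh. It measured 30.2, 32.1, 24.4 and 26.6 CPM in HFpEF + Veh and 20.1, 22.8, 29.7 and 29.3 CPM in HFpEF + TYA-018. Its spread between libraries of one group was as wide as the differences between group means, which were 24.0 ± 2.67, 28.3 ± 3.46 and 25.5 ± 4.78 CPM. The 3 log2 fold changes were 0.23, -0.15 and 0.08, each ± 0.13, for model, treatment and treated-to-control comparisons in turn.

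Ece1, which makes the active peptides from their precursors (ENSMUSG00000057530.14, protein-coding, chr4:137862237-137965229), was the most abundant member. It measured 110.4, 100.0, 97.7 and 90.2 CPM in C1 to C4. It measured 116.0, 118.3, 104.5 and 115.0 CPM in V1 to V4 and 83.6, 81.7, 85.8 and 109.4 CPM in T1 to T4. Of the treated libraries, 3 lay below all other libraries, and T4 lay among those of HFpEF + Veh. The log2 fold change was 0.19 ± 0.10 for the model comparison, -0.33 ± 0.10 for the treatment comparison and -0.14 ± 0.10 for the treated-to-control comparison.

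**Figure D2:**
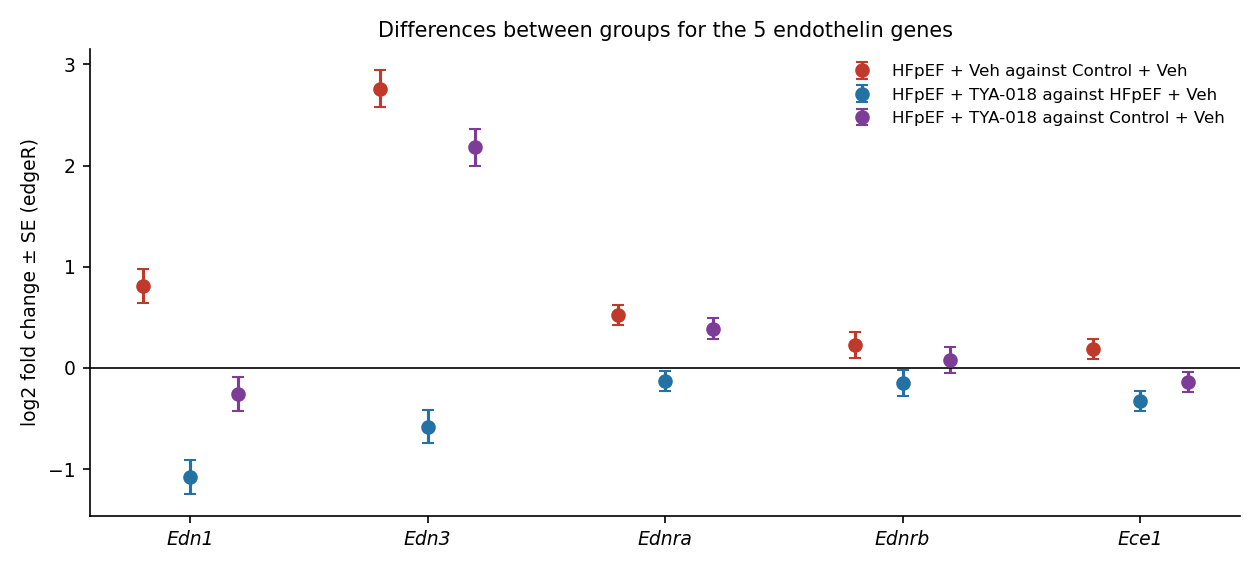
edgeR log2 fold change ± SE of each member in the 3 comparisons (14333 genes fitted, 4 libraries per group). Edn3 stands at 2.76 and 2.18 against Control + Veh, and Edn1 at 0.81 with the model and -1.08 with TYA-018.

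Counted at an adjusted p under 0.05 over all genes, 3 of 5 members (Edn1, Edn3 and Ednra, all higher) passed for the model comparison, where 21.2% of all tested genes passed, 10.9% as higher and 10.3% as lower. For the treatment comparison, 3 of 5 (Edn1, Edn3 and Ece1, all lower) passed, beside 19.3% of all genes, 8.93% as higher and 10.4% as lower. For the treated-to-control comparison, 2 of 5 (Edn3 and Ednra, both higher) passed, beside 5.86% of all genes, 3.12% as higher and 2.74% as lower. Groups did not overlap for 3, 1 and 2 of the 5 members in these comparisons, beside 23.5%, 25.1% and 14.8% of all genes. Since the members were chosen on these contrasts, nothing is read from these counts. The comparisons share their HFpEF + Veh or Control + Veh libraries and are not independent of each other.

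Several of these counts depended on single libraries. Leaving out a library does not undo the choice of members on these contrasts, so nothing is read from which members still passed. With 1 library left out, 13.7 to 27.5% of all genes passed for the model comparison. These shares were 10.2 to 18.8% for the treatment comparison and 2.12 to 5.58% for the treated-to-control comparison. Edn1, Edn3 and Ednra for the model comparison, Edn1 for the treatment comparison, and Edn3 for the treated-to-control comparison passed whichever of the 8 libraries was left out. Edn3 for the treatment comparison no longer passed without T1, T2, V2, V3 or V4, with the log2 fold change between -0.71 and -0.49. Ece1 in that comparison no longer passed without T1, T2, T3, V1, V2 or V4, with values between -0.44 and -0.29. Ednra for the treated-to-control comparison passed only with all libraries or without C1, with values between 0.33 and 0.44. It also did not pass with no filter on low counts, where 2.84% of genes passed, with the effective length of each library's transcripts as offset, or with limma on any scale of TPM, the deposited values that divide counts by that length. With the length offset or on any TPM scale, Edn3 and Ece1 did not pass for the treatment comparison. Ednra for the model comparison did not pass on any TPM scale, the rescaled one included. Edn1 did not pass for the model comparison on log2(TPM + 1) or log2(TPM + 0.1), or for the treatment comparison on log2(TPM + 0.1). Edn3 did not pass for the treated-to-control comparison on log2(TPM + 1). Of all genes, 1.2, 2.1 and 7.95% passed for the model comparison on log2(TPM + 1), log2(TPM + 0.1) and rescaled TPM. In the same order, 0.0628, 0.0767 and 0.733% passed for the treated-to-control comparison, and 1.42% with the length offset. For the treatment comparison, 5.58 to 18.3% passed on the TPM scales, the most on log2(TPM + 0.1), and 8.49% with the offset. Where few genes passed at all, not passing says little about a single member.

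Levels of different genes were set side by side as CPM per kb of the longest annotated coding transcript. In Control + Veh the order from lowest was Edn3 (0.754 ± 0.125 CPM per kb), Edn1 (1.64 ± 0.219), Ednrb (5.85 ± 0.650), Ednra (5.86 ± 0.586) and Ece1 (20.7 ± 1.73). On this scale, Edn1 and Edn3 had changed places in both HFpEF groups. In HFpEF + Veh the levels were 2.88 ± 0.359 CPM per kb for Edn1, 5.09 ± 0.969 for Edn3, 6.89 ± 0.842 for Ednrb, 8.41 ± 1.14 for Ednra and 23.6 ± 1.27 for Ece1. In HFpEF + TYA-018 they were 1.37 ± 0.316, 3.41 ± 0.585, 6.20 ± 1.16, 7.69 ± 0.646 and 18.7 ± 2.69 CPM per kb in that same order. Neighbours in the order did not overlap between libraries, apart from Ednrb and Ednra, which overlapped in all 3 groups.

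Edn3 made up 35.1, 36.3, 30.4 and 24.6% of the summed CPM per kb of Edn1 and Edn3 in C1 to C4. Its share was 58.8, 66.2, 66.5 and 62.7% in V1 to V4. It was 69.3, 75.7, 70.9 and 70.2% in T1 to T4. The 3 groups did not overlap, with means of 31.6% ± 5.30, 63.6% ± 3.60 and 71.5% ± 2.85. On the TPM scale the means were 19.8% ± 4.54, 54.1% ± 11.8 and 60.4% ± 2.19, and the HFpEF groups overlapped. In V1 the Edn3 share of TPM was 40.7%, so Edn1 stood above Edn3 there, unlike on the CPM per kb scale. Ednra made up 50.0% ± 2.20, 54.9% ± 6.02 and 55.6% ± 3.23 of the summed receptor CPM per kb in controls, untreated and treated HFpEF, and all 3 pairs of groups overlapped.

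**Figure D3:**
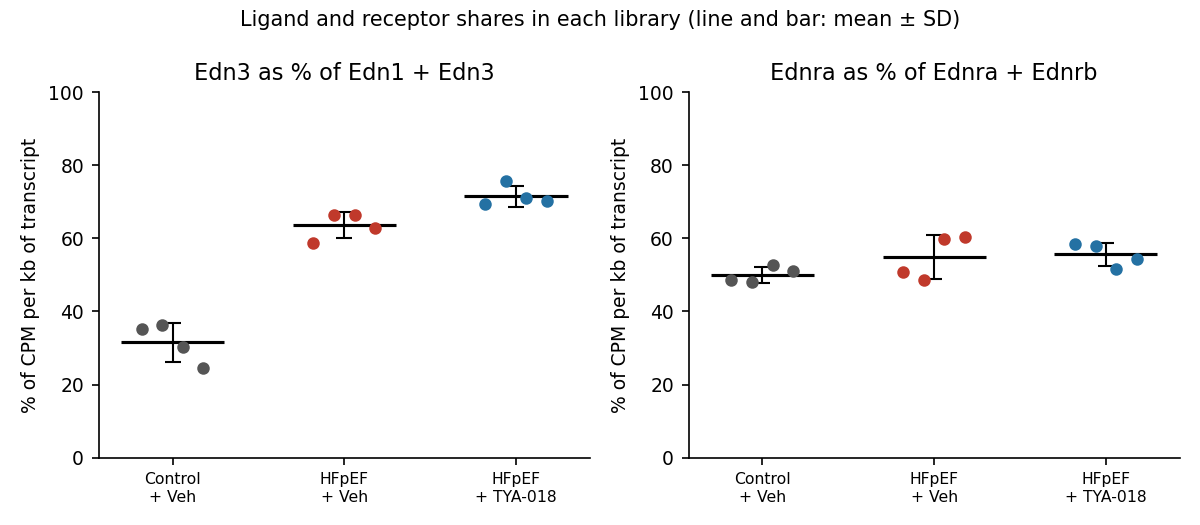
Edn3 as a percentage of Edn1 + Edn3 and Ednra as a percentage of Ednra + Ednrb, in CPM per kb of the longest coding transcript, with 1 point per library and mean ± SD for 4 libraries per group. The Edn3 share runs from 24.6 to 36.3% in Control + Veh and from 58.8 to 75.7% in the HFpEF groups, while the Ednra share lies between 47.9 and 60.3% throughout.

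The deposited TPM values, which divide counts by an effective length estimated anew in each library, changed parts of this description. Effective length is the number of positions a fragment could start from, corrected for sequence bias. For Edn3 it was 4446 to 4975 bases in Control + Veh and 3794 to 4429 bases in HFpEF + TYA-018, and in HFpEF + Veh it was 5151, 5027, 2844 and 4776 bases in V1 to V4. The longest annotated coding transcript of Edn3 has 3117 bases, so all of these lengths but that of V3 exceed it. V3, with the short length, had an Edn3 TPM of 2.22, beside 0.710, 0.997 and 1.09 in V1, V2 and V4. TPM was 0.129 to 0.207 in Control + Veh and 0.842 to 1.13 in HFpEF + TYA-018. On both scales Edn3 in the HFpEF groups therefore lay above all controls. In deposited TPM, V1, V2 and V4 lay within or below the range of HFpEF + TYA-018, so the lower mean level with TYA-018 there rested on V3. For the treatment comparison, the median of all genes on log2(TPM + 0.1) had itself moved by 0.34. The log2 fold change of Edn3 was -0.57 ± 0.23 on log2(TPM + 1) rescaled to protein-coding genes without mitochondrial ones. It was -0.72 ± 0.27 by edgeR with the effective length as offset.

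**Figure D4:**
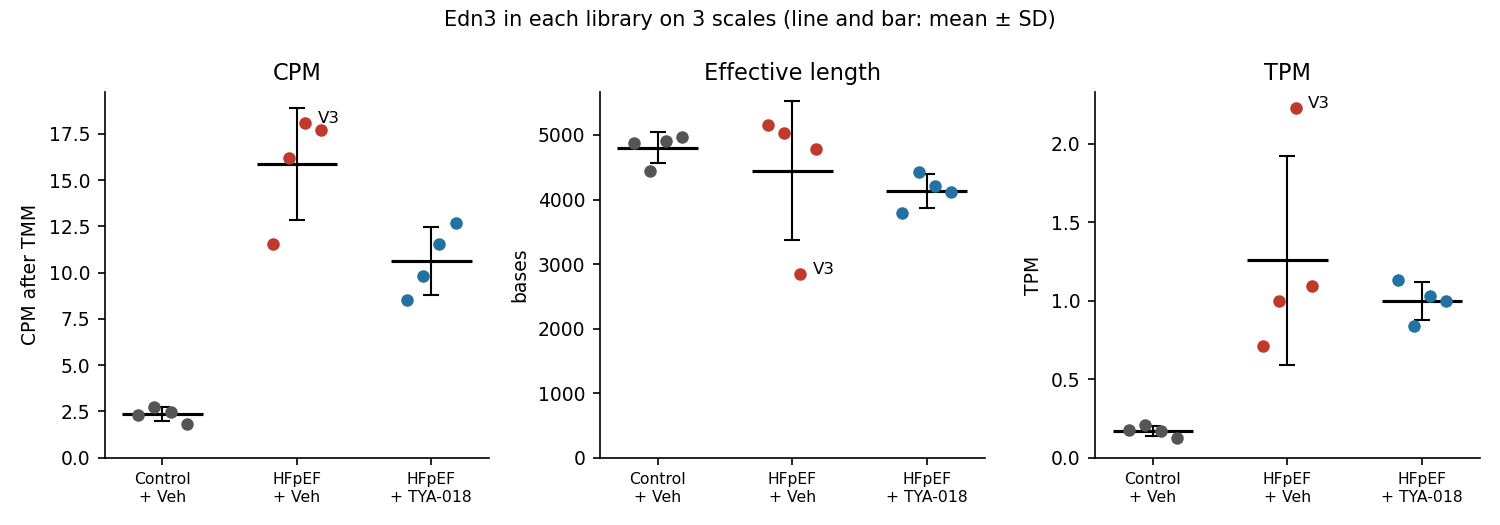
Edn3 in each library as CPM after TMM, as effective length in bases and as TPM, with mean ± SD for 4 libraries per group and all axes from 0. Library V3 has an effective length of 2844 bases and the highest TPM, 2.22, while its 18.1 CPM lies close to V4 at 17.7 CPM.

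Ece1 showed the same kind of spread. Its effective length ran from 1526 to 4768 bases over the 12 libraries, and in Control + Veh its TPM ran from 6.99 to 19.4 while its CPM ran from 90.2 to 110.4. No group difference in Ece1 can be read from TPM at that spread. For Edn1, TPM kept the pattern seen in CPM, with 0.621 to 0.805 in controls, 0.921 to 1.03 in untreated HFpEF and 0.483 to 0.797 in treated HFpEF. For Ednra, HFpEF + Veh at 1.72 to 2.45 TPM overlapped Control + Veh at 1.51 to 2.03 TPM. HFpEF + TYA-018 lay at 2.37 to 3.36 TPM, while the rescaled TPM gave a log2 fold change of -0.05 ± 0.14 for the treatment comparison. Effective lengths of the members were compared between groups by two-sided exact permutation tests, 15 in all. The smallest p was 0.0286, which is the smallest that 4 against 4 libraries allow, and it was reached for Edn3 in the treated-to-control comparison and for Ednra in both comparisons with HFpEF + Veh (exact permutation test, adjusted p 0.143). Ednra was longer in HFpEF + Veh, at 4691 ± 181 bases against 4152 ± 153 in Control + Veh and 4012 ± 196 in HFpEF + TYA-018, and none of the 15 differences passed after adjustment.

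Genes that act with the endothelins were taken from 7 lists holding 78 genes, of which 69 were tested. The lists were chosen with earlier results of these data known. Outside the processing list, the genes named below were picked from those with the smallest adjusted p. The counts, medians and p-values of these lists are therefore given as a description. For the model comparison, 18 rose and 4 fell at an edgeR adjusted p under 0.05. The median log2 fold change of the 69 was 0.16, beside -0.01 for all tested genes. For the treatment comparison, 1 rose and 18 fell, with a median of -0.19 beside 0.00 for all genes. For the treated-to-control comparison, 4 rose and 1 fell, with a median of -0.05 beside -0.02. The shares of all genes that passed in these comparisons are the 21.2, 19.3 and 5.86% given above.

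The TPM scale gave other splits for these lists. limma on log2(TPM + 1) called 0 higher and 1 lower for the model comparison, and 4 higher and 1 lower for the treatment comparison, where the median of all genes had itself moved by 0.17. After TPM were rescaled to protein-coding genes without mitochondrial ones, limma called 4 higher and 2 lower for the model comparison, beside 7.95% of all genes. It called 0 higher and 6 lower for the treatment comparison, beside 5.58%. edgeR with the effective length as offset called 7 higher and 3 lower, and 1 higher and 9 lower, beside 10.1% and 8.49% of all genes. On log2(TPM + 1), the sign with TYA-018 turned for Plcb3, Rgs3, Itpr2, Rhoa and Nos3, which stood between 0.02 and 0.08 against HFpEF + Veh. That of Ece1 turned to 0.06. All of these still lay below the median of all genes at 0.17, Ece1 by 0.11. Ednra and Ednrb stood at 0.28 and 0.20 on that scale, or 0.12 and 0.03 above the median of all genes.

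Among processing and clearance genes, Furin, a protease that cuts the precursors, rose from 70.1 ± 4.47 CPM in controls to 95.0 ± 13.1 CPM in untreated HFpEF (edgeR log2 fold change 0.44 ± 0.09, adjusted p 0.0054), and HFpEF + TYA-018 stood at 81.6 ± 2.89 CPM. Ece2, a second converting enzyme, stood at 2.76 ± 0.341, 3.37 ± 0.441 and 3.56 ± 0.157 CPM and passed in no comparison. Mme, which encodes the peptide-degrading enzyme neprilysin, stood at 4.62 ± 0.963, 5.62 ± 0.637 and 5.19 ± 0.820 CPM and passed in none either. Cma1, a mast cell chymase that can process endothelin precursors, was listed at 0 in C3, V4, T1 and T2 and reached 37 counts in C2, so its level followed single libraries. The remaining genes of the list had too few reads to be tested. Edn2, the third ligand gene, had 5 reads in all, spread over 3 of 12 libraries. Ecel1 had 32 reads in all. Kel, the Kell blood group protease known to cut the Edn3 precursor, had 13, 5, 13 and 3 reads in V1 to V4, 1 read in all of Control + Veh and 3 in all of HFpEF + TYA-018. Kel is an erythroid gene. The 5 red cell markers were all higher in HFpEF + Veh and all lower again with TYA-018. They summed to 1553 to 2309 CPM in controls, 4785 to 14139 CPM in untreated HFpEF and at most 3572 CPM in treated HFpEF. In treated HFpEF their sum averaged 2911 CPM. The part of red cells in the Kel reads was not tested.

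G proteins and phospholipase C beta carry the signal of both receptors. Of 11 genes for them, 4 rose with the model and 6 fell with TYA-018, beside 10.9% and 10.4% of all genes. Gnai2 rose from 211.6 ± 5.35 to 246.5 ± 10.4 CPM and fell to 208.5 ± 4.62 CPM (edgeR log2 fold changes 0.22 ± 0.05 and -0.24 ± 0.05, adjusted p 0.011 and 0.00826). Plcb3, a phospholipase, moved by 0.23 ± 0.07 and -0.38 ± 0.07 (edgeR adjusted p 0.0318 and 0.00382). Plcb4, another phospholipase, fell with TYA-018 from 67.8 ± 7.4 to 42.6 ± 7.13 CPM (edgeR log2 fold change -0.67 ± 0.13, adjusted p 0.00596), after 51.7 ± 8.14 CPM in Control + Veh. Gna12 was at 73.5 ± 2.06 CPM in Control + Veh and was higher in both HFpEF groups, at 83.6 ± 3.21 CPM untreated and 92.2 ± 3.56 CPM treated (edgeR adjusted p 0.0228 and 0.00515 against Control + Veh), and it did not pass for the treatment comparison (edgeR adjusted p 0.0686).

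Of 10 genes for receptor kinases, arrestins and regulators of G protein signalling, 3 rose and 2 fell with the model. With TYA-018, 3 fell. The shares of all genes were 10.9%, 10.3% and 10.4% in turn. Rgs5, also a pericyte marker, rose from 474.8 ± 29.6 to 601.4 ± 3.29 CPM and fell to 443.4 ± 42.1 CPM (edgeR adjusted p 0.00769 and 0.00286). Rgs3 rose by 0.38 ± 0.06 and fell by 0.40 ± 0.06 on the log2 scale (edgeR adjusted p 0.00169 and 0.00179). Grk5, a receptor kinase of heart muscle, rose from 26.2 ± 1.18 to 33.7 ± 1.25 CPM (edgeR adjusted p 0.00108) and stood at 32.1 ± 1.40 CPM in HFpEF + TYA-018, still higher than Control + Veh (edgeR adjusted p 0.0102). Grk3, listed under its older symbol Adrbk2, fell from 11.99 ± 1.73 to 7.85 ± 1.39 CPM with the model and stood at 7.95 ± 0.586 CPM in treated hearts (edgeR adjusted p 0.00759 and 0.024 against Control + Veh). Without T1, T3, T4 or C4, Grk3 no longer passed for the treated-to-control comparison, with log2 fold changes between -0.65 and -0.52, while Grk5 passed whichever library was left out.

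Among 18 tested calcium, kinase and NFAT effectors, 4 rose with the model and 5 fell with TYA-018. The shares of all genes were 10.9% and 10.4%. Itpr2, a receptor for inositol trisphosphate that releases stored calcium, rose from 16.8 ± 1.69 to 21.0 ± 2.25 CPM and fell to 14.8 ± 1.02 CPM (edgeR adjusted p 0.0271 and 0.00431). Rhoa, a small GTPase of contraction, rose from 137.7 ± 2.95 to 176.4 ± 7.65 CPM and fell to 136.3 ± 8.76 CPM (edgeR adjusted p 0.00198 and 0.00228). Rcan1, a target of calcineurin signalling, rose from 26.5 ± 1.75 to 34.9 ± 3.53 CPM (edgeR adjusted p 0.00453) and stood at 32.3 ± 1.83 CPM with TYA-018. The difference between effectors such as Rhoa and effectors such as Rcan1 was not tested.

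Of 8 genes for nitric oxide synthases and cyclic GMP, only Nos3, the endothelial synthase that L-NAME blocks, passed. Of all genes, 21.2% passed with the model and 19.3% with TYA-018. Nos3 rose from 49.8 ± 2.27 to 55.8 ± 0.915 CPM and fell to 48.8 ± 1.07 CPM (edgeR adjusted p 0.0246 and 0.0141). Of 12 transcription factors known to act on Edn1, 3 rose with the model, beside 10.9% of all genes. Klf4, induced by flow in endothelium, rose from 58.4 ± 9.10 to 96.3 ± 4.42 CPM (edgeR adjusted p 0.00191). Foxo1 rose by 0.39 ± 0.09 on the log2 scale (edgeR adjusted p 0.00894). Gata2, an endothelial factor for the Edn1 promoter, rose from 28.0 ± 1.95 to 34.4 ± 4.17 CPM and fell to 23.1 ± 2.56 CPM with TYA-018 (edgeR adjusted p 0.0458 and 0.003). Gata4, the factor of heart muscle, rose only with TYA-018, from 52.9 ± 1.38 to 62.8 ± 4.69 CPM (edgeR adjusted p 0.0216), and it no longer passed without T1, V1 or V3 (log2 fold change between 0.21 and 0.28).

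Other vasoactive peptide genes moved in different directions. Agt, the angiotensin precursor, rose from 4.59 ± 0.439 to 9.09 ± 1.99 CPM (edgeR adjusted p 0.00256) and stood at 7.88 ± 1.34 CPM in treated hearts, higher than Control + Veh (edgeR adjusted p 0.0235). Nppb, the B-type natriuretic peptide, rose from 28.6 ± 7.13 to 76.0 ± 24.6 CPM and fell to 23.4 ± 7.76 CPM (edgeR adjusted p 0.00675 and 0.00355). Nppa, the atrial natriuretic peptide, fell from 190.7 ± 50.3 to 111.8 ± 39.2 CPM (edgeR adjusted p 0.0458). Kng1, the kininogen gene made mainly in liver, fell from 0.977 ± 0.480 to 0.0689 ± 0.0631 CPM (edgeR adjusted p 0.0195), at levels near the lower limit of detection.

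Of the genes named from these lists, 12 of 19 calls for the model comparison, 10 of 11 for the treatment comparison and 2 of 5 for the treated-to-control comparison held whichever of the 8 libraries was left out. With the model, Kng1 lost its call without V2, and Gna12 without V3, C2 or C4, with log2 fold changes between -4.39 and -3.39 and between 0.17 and 0.21. Among the fits that left out a library, Plcb3 (0.20 to 0.25) kept its call only without V2 or C1. Itpr2 (0.26 to 0.40) kept it only without V1, V3 or C1, and Nos3 (0.15 to 0.19) only without V4, C1 or C4. Gata2 (0.22 to 0.35) kept it only without V3 or C1, and Nppa (-0.93 to -0.56) only without V2, V4 or C1. In treated hearts against controls, Rcan1 (0.25 to 0.32) kept its call only without C1, and Agt (0.73 to 0.89) only without T3, C1 or C3. None of these called genes changed direction when a library was left out.

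**Figure D5:**
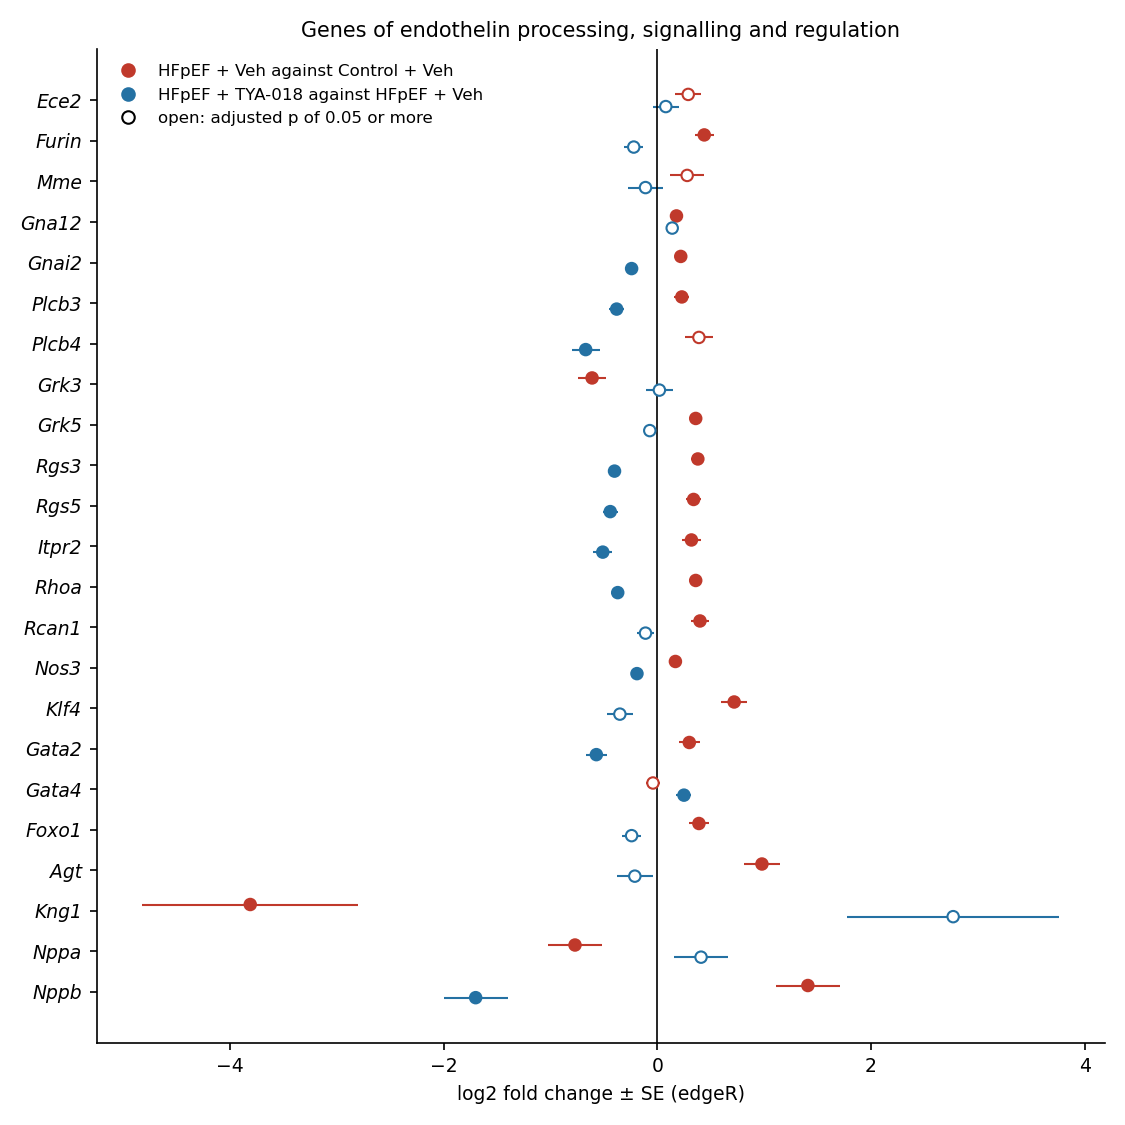
edgeR log2 fold change ± SE of 23 named genes of endothelin processing, signalling and regulation, with the model comparison in red and the treatment comparison in blue, and open points where the adjusted p was 0.05 or more. Nppb stands at 1.41 and -1.70, Rgs3 at 0.38 and -0.40, and Grk3 at -0.61 and 0.02.

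Marker genes of several cell types moved with the groups. Of all genes, 10.9% passed as higher and 10.3% as lower with the model. The 10 endothelial markers summed to 866.7 to 1003 CPM in controls, 1038 to 1224 CPM in untreated HFpEF and 829.5 to 1026 CPM in treated HFpEF, with 3 higher and 0 lower with the model. Mean Pecam1 went from 155.1 CPM in controls to 221.9 in untreated HFpEF, and Cdh5 from 218.5 to 296.4. Egfl7 and Emcn were lower, from 119.1 to 112.2 and from 37.7 to 36.8 CPM, and the other endothelial means were higher. The 10 fibroblast markers summed to 695.3 to 1144, 1154 to 1630 and 774.4 to 1137 CPM, with 6 higher. The 8 macrophage markers summed to 100.5 to 120.6, 157.4 to 202.5 and 109.0 to 128.6 CPM, with 7 higher. The 10 smooth muscle and pericyte markers summed to 882.2 to 998.9, 1010 to 1111 and 791.8 to 973.9 CPM, with 1 higher, Rgs5. The mean Rgs5 level alone was 474.8, 601.4 and 443.4 CPM. The median log2 fold change of these 10 markers with the model was -0.05. These 4 sums had the order seen for Edn1, with HFpEF + Veh above both other groups without overlap. The gap to controls was small for fibroblast markers (1154 against 1144 CPM) and for smooth muscle and pericyte markers (1010 against 998.9 CPM). Of single genes, 23.5% and 25.1% did not overlap for the model and treatment comparisons, in either direction. The part of these cell types in the Edn1 result was not tested. The 8 cardiomyocyte markers went the other way, with sums of 26926 to 35541 CPM in controls, 24743 to 26820 CPM in untreated HFpEF and 27554 to 30134 CPM in treated HFpEF. With the model 1 of these was higher and 5 were lower, with a median log2 fold change of -0.45. With TYA-018 2 of these cardiomyocyte markers were higher and 0 lower, beside 8.93% and 10.4% of all genes. Their part in the member results was not tested.

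Lists for melanocytes and Schwann cells, which come from the neural crest where Edn3 and Ednrb act in development, and for endocardium were summed too. Of 6 melanocyte markers, Tyr was at 0 in all libraries, and the list summed to 23.6 to 31.7 CPM in controls, 23.8 to 26.8 in untreated HFpEF and 23.7 to 30.1 in treated HFpEF, nearly all of it from Mitf. The 7 Schwann cell markers summed to 15.8 to 23.3, 14.1 to 18.6 and 10.9 to 14.4 CPM. The 5 endocardial markers summed to 46.5 to 53.3, 38.1 to 48.9 and 31.8 to 48.5 CPM. None of these sums stood above all control libraries in untreated HFpEF. The mesothelial and epicardial list of 6 genes did move, from 6.45 to 7.93 CPM in controls to 8.75 to 12.3 CPM in untreated HFpEF and 8.53 to 11.4 CPM in HFpEF + TYA-018, nearly all of it Wt1. The part of any of these cell types in the Edn3 result was not tested.

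Over the 12 libraries, the genes with the level pattern closest to Edn3, by Pearson's r of log2 CPM, were Cldn15, Cdk1, P4ha1, 1700007K13Rik and Adamtsl2 (r from 0.948 to 0.963). After subtraction of group means these r ranged from 0.466 to 0.774. Cldn15, a claudin of epithelia, stood at 4.76 CPM in controls, 11.9 in untreated HFpEF and 8.67 in treated HFpEF. Adamtsl2, a matrix glycoprotein gene, stood at 13.6, 28.6 and 25.4 CPM. P4ha1, which encodes a subunit of collagen prolyl hydroxylase, stood at 27.8, 38.1 and 37.1 CPM. Cdk1, the kinase of mitosis, stood at 0.467, 3.42 and 1.77 CPM. The genes were picked as the highest of all tested genes, and all points share their libraries and scaling.

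For Edn1 the 5 closest genes were Coro2b, Fzd6, Lasp1, Tinagl1 and Zbtb2 (r from 0.949 to 0.96, within groups from 0.712 to 0.781). Tinagl1, a matrix protein gene of vessels, stood at 97.3, 166.4 and 82.3 CPM in the 3 groups. For Ednra they were Inafm2, Rnf34, Ccnb1, Spc25 and Hsdl2 (r from 0.932 to 0.947). For Ednrb they were Itgb7, Klf11, Mpeg1, Slc39a10 and Tcf21 (r from 0.880 to 0.893), and for Ece1 Abcb1a, Ttc28, Afap1, Osmr and Bmp6 (r from 0.954 to 0.972). Abcb1a, an efflux transporter of small-vessel endothelium, stood at 22.1, 27.6 and 19.4 CPM. Between members, r was 0.88 for Edn3 and Ednra over all 12 libraries and 0.45 after group means were subtracted. For Edn1 and Edn3 it was 0.44 both ways, and for Ednrb and Ece1 it was 0.67 and 0.70.

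The composition of libraries also moved with the members. Across the 12 libraries, r with the mitochondrial percentage was 0.87 for Edn1, 0.75 for Ednra and 0.61 for Edn3, and 0.56, 0.91 and 0.56 after group means were subtracted. With the log2 globin percentage, r was 0.71 for Edn3 and 0.61 for Edn1, and -0.39 and -0.38 after group means were subtracted. Library V4, with the highest mitochondrial percentage, had the highest Edn1 and Ednra, and library V1, with the highest globin percentage, had the lowest Edn3 of its group. The part of red cell and mitochondrial transcripts in the member results was not tested.

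Genes near Edn3 on chromosome 2 were examined as well. No tested gene started within 250 kb of the Edn3 start. Within 500 kb there were 10 tested genes, of which 0 rose and 1 fell for the model comparison by edgeR, beside 10.9% and 10.3% of all genes, and numbers this small do not set them apart from other genes. The nearest on either side were Atp5e, a subunit of ATP synthase, at 296.5 kb, and Gm14387, an unprocessed pseudogene, at 325.9 kb. Atp5e stood at 184.0 ± 55.5 CPM in Control + Veh and 149.5 ± 22.4 CPM in HFpEF + Veh (edgeR log2 fold change -0.30 ± 0.19, adjusted p 0.277). Gm14387 fell from 11.7 ± 1.70 to 5.22 ± 0.461 CPM (edgeR log2 fold change -1.16 ± 0.16, adjusted p 0.000922), and reads of a pseudogene can be shared with near copies. For the treatment comparison, 2 of the 10 genes within 500 kb rose and 0 fell, beside 8.93% and 10.4% of all genes. They were Gnas and Nelfcd (edgeR log2 fold changes 0.27 ± 0.05 and 0.26 ± 0.07, adjusted p 0.00709 and 0.0285), while Edn3 stood lower. Numbers this small do not set these neighbours apart from other genes either. Around Edn1, the 2 tested genes within 500 kb, Hivep1 and Phactr1, passed in no comparison.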

How the data were processed

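RNA-seq of 12 mouse left ventricles (4 per group, groups from the sample titles) was analysed from 3 deposited tables. The first deposited table holds estimated counts per gene, which the authors did not normalise. By the study's methods they were made with fastp, salmon (Salmon 1.6.0 in the submitters' processing notes) and tximport against GENCODE transcripts of GRCm38. The second holds TPM deposited by the authors for all gene types. Effective lengths in bases, another kind of value, make up the third deposited table. The submitters' notes name hg38 as build, which goes against the mouse symbols. The labels and the study differ in read length and layout, and the strand setting of the counting is not given in the sources used here. Coordinates and transcript lengths are GENCODE M21 (GRCm38). Some rows carry older symbols such as Adrbk2, and whether the transcripts counted match those of GENCODE M21 was not tested.

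Counts were rounded, filtered with filterByExpr (14333 of 29564 genes), scaled by TMM and fitted over all groups with edgeR 4.0.16 (R 4.3.3) as one quasi-likelihood model with 9 residual degrees of freedom. Tests were two-sided F tests, adjusted by Benjamini-Hochberg over all genes, and called at an adjusted p under 0.05. Correlations used log2 CPM with a prior count of 2. The fit was tested on simulated data. Alternatives were RLE size factors, DESeq2 1.42.0, no filter, limma 3.58.1 on log2(TPM + 1) and log2(TPM + 0.1), rescaled TPM, a length offset, no mitochondrial genes, only the groups compared, and leaving out each library.

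The members and gene lists were chosen with earlier results of these data known. Besides the members, genes named were those of the processing list, up to 4 called genes of each other list by smallest adjusted p, the 5 genes closest to each member by r, and the nearest tested gene on each side of Edn3. A gene that this rule named is not reported here. Gnas, Nelfcd, Hivep1, Phactr1 and Kel were added after their values were seen. Nothing says that libraries were made in separate batches. The edgeR p-values set differences between groups against the spread between mice within groups. That spread does not cover cage or processing date, which cannot be told apart from group.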

Additional observations from a re-analysis of the deposited data

Results flagged for a closer look

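In 45 groups of 4 libraries (5 members, 3 groups, and CPM, TPM and effective length), 4 values stood apart by Dixon's test at the 95% level, where chance alone flags about 5% of groups, or 2.25 of 45. Library V3 had an Edn3 effective length of 2844 bases, far below the rest of HFpEF + Veh. Library C1 had an Ednrb level of 28.0 CPM, above the rest of Control + Veh. Library C2 had an Ece1 effective length of 4768 bases, above the rest of Control + Veh. Library T4 had an Ece1 level of 109.4 CPM, above the rest of HFpEF + TYA-018.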

How the results depend on the processing

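No paired analysis was possible because the groups have no animal numbers in common. Under RLE size factors, no filter, no mitochondrial genes and a fit of only the groups compared, every member's log2 fold change stayed within 1 SD of the reported one and the counts of pathway genes stayed within 1.5 times. Of 255 alternative values for members, 227 did so and 28 moved further. Of the 255, 11 turned sign, 10 on TPM scales and 1 with the length offset, and of 1220 values for named pathway genes 1040 kept their side of the threshold. The cause of the changes with TPM and effective lengths was not tested.

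For pathway genes, counts for the model, treatment and treated-to-control comparisons were 1, 5 and 0 with limma on log2(TPM + 1), 3, 5 and 0 on log2(TPM + 0.1), 6, 6 and 0 with rescaled TPM, and 10, 10 and 0 with the edgeR length offset. The counts of 0 stood beside 16, 16, 11 and 19 genes at an unadjusted p under 0.05. DESeq2 called 8 in the treated-to-control comparison, beside 10.6% of all genes. For fits without 1 library, on the TPM scales and with the length offset, the shares of all genes are given above. Leaving out 1 library gave 15 to 29, 12 to 22 (12 without T2) and 2 to 5 (2 without T1 or C4, 3 without C2, T2, T3 or T4).

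For the model comparison, log2(TPM + 1) gave Edn1 0.21, Edn3 0.90, Ednra 0.14, Ednrb -0.07, Ece1 0.01 and Plcb3 -0.01. log2(TPM + 0.1) gave 0.42, 2.22, 0.20, -0.10, 0.01 and -0.02. Rescaled TPM gave Edn1 0.61 and Edn3 2.16, and the length offset Edn3 3.06. For the treatment comparison, log2(TPM + 1) gave Edn1 -0.24, Edn3 -0.13, Ednra 0.28, Ednrb 0.20, Ece1 0.06, Plcb3 0.08, Rgs3 0.02, Itpr2 0.02, Rhoa 0.07 and Nos3 0.07. log2(TPM + 0.1) gave -0.50, -0.20, 0.39, 0.28, 0.06, 0.13, 0.02, 0.05, 0.07 and 0.09. The median of all genes was then 0.17 and 0.34, so that Edn1 lay 0.41 and 0.84 below it. For the treated-to-control comparison, log2(TPM + 1) gave Edn3 0.77 and Ece1 0.06, log2(TPM + 0.1) gave Ednra 0.59 and Ece1 0.07, and rescaled TPM gave Edn3 1.58. Leaving out 1 library kept Edn3 between 2.66 and 2.89, between -0.71 and -0.49 and between 2.08 and 2.27, and Edn1 between 0.73 and 0.87, between -1.21 and -0.96 and between -0.39 and -0.14. With a window of 1000 kb around Edn3, 2 of 14 neighbours fell and 0 rose for the model comparison by edgeR, beside 10.3% and 10.9% of all genes.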
